A study of Mus musculus with 5 samples.

Results

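The mesoderm regulators described here are 10 genes, T, Mesp1, Tbx6, Mixl1, Msgn1, Kdr, Tal1, Hand2, Isl1 and Twist1, out of 21887 protein-coding genes on the assembled mouse chromosomes (RefSeq, GRCm38.p6, which mm10 names). They were taken by name. Every peak of the V5-KLF5 library that lay inside one of them or within 20 kb of its ends was assigned to it, which gave 22 of the 45378 peaks of that library. KLF5 belongs to the Krüppel-like factors, which bind DNA through zinc fingers, and V5 is a short peptide tag that an anti-V5 antibody recognises. Chromatin immunoprecipitation and sequencing (ChIP-seq) were done in mouse embryonic stem (ES) cells, so the data show where the tagged protein was bound in ES cells and not in mesoderm.

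The study has 5 libraries, with 1 library for each group. The anti-V5 immunoprecipitate, a normal mouse IgG immunoprecipitate and input DNA came from wild-type ES cells of C57B6/J mice that overexpressed V5-KLF5. A further anti-V5 immunoprecipitate and its input came from wild-type ES-D3 cells without the tag, whose deposited list names another mouse ES line, JM8.N4, in its run name. The binding was therefore that of an overexpressed, tagged protein, and no difference between libraries has a replicate check. The files hold peak lists and no expression, so the identity of the cells could not be checked against marker genes.

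Mesoderm forms when cells leave the epiblast through the primitive streak. T-box and homeobox factors act first in the streak, basic helix-loop-helix (bHLH) factors then set nascent mesoderm apart into presomitic, cardiac and other lineages, and a receptor for vascular endothelial growth factor marks the progenitors of blood and endothelium. These genes are mostly silent in naive ES cells and serve as markers that the cells have left that state.

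KLF5 peaks were present near most of the mesoderm regulators. The strongest peak per gene was mostly below the median over protein-coding genes with a peak. Of the 10 genes, 9 had at least 1 V5-KLF5 peak inside or within 20 kb, beside 74.8% of all protein-coding genes by the same rule, and Mixl1 had none. Only Hand2 had a peak with a fold enrichment of at least 10 over input, 1 of 10 genes, beside 28.2% of all protein-coding genes. The strongest peak per gene had a median fold enrichment of 4.87 over the 9 genes with a peak, against 8.45 over the 16381 protein-coding genes with a peak. The median number of peaks per gene, genes without a peak included, was 1 for the mesoderm regulators and 2 over all protein-coding genes. A strongest value is taken over all peaks of a gene, and its dependence on their number was not tested. Peak by peak the difference in fold enrichment was smaller, with a median of 4.73 against 5.18 over all peaks. The median was 4.27 for the 12 peaks whose nearest coding-gene end was that of the mesoderm gene itself. It was 4.77 for the 10 peaks nearer to an end of a neighbour. The control lists held 0 peaks in these windows, both in the IgG list, which has 3 peaks in all, and in the V5 list of the untagged cells, which has 0.

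**Figure D1:**
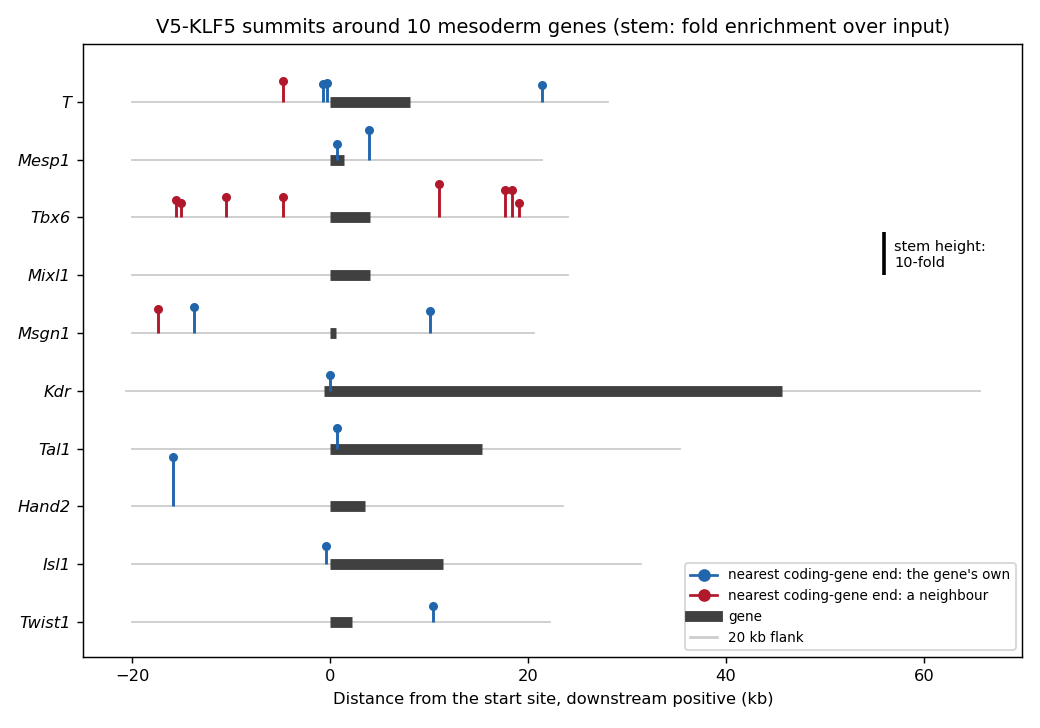
Position of the V5-KLF5 summits around each gene, as distance in kb from the start site with downstream positive. Stem height is fold enrichment over input, blue stems have an end of the gene itself as nearest coding-gene end and red stems an end of a neighbour, and the grey line is the 20 kb flank. Mixl1 is drawn from its left end because its strand is not in the table used. All 8 stems at Tbx6 are red, and the tallest stem, at Hand2, has a fold enrichment of 11.5.

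The values of each peak are the authors' own. The pileup is the number of tags, extended to 250 bases, that cover the summit, and the fold enrichment is the ratio of the pileup plus 1 to the input background plus 1. The 22 peaks had pileups of 13 to 46 with a median of 19.5, against a median of 24 over all peaks on assembled chromosomes. Their fold enrichments ran from 3.21 to 11.5 with a median of 4.73, against 5.18 over all peaks, and 7 of the 22 exceeded that overall median. Of the 22, 9 stood on the genome-wide input background of 3.10 (within 0.001 of it), beside 37.2% of all peaks. Intervals given below with a fold enrichment are 95% Poisson intervals of the pileup, and they cover counting error only.

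A peak near a gene need not belong to it. For 12 of the 22 summits the nearest end of a protein-coding gene was an end of the mesoderm gene itself, and for 10 it was an end of a neighbour. Those 10 were all 8 summits at Tbx6, 1 of 4 at T and 1 of 3 at Msgn1. Of the 10 mesoderm genes, 8 had a summit with their own end as the nearest, beside 63.9% of all protein-coding genes. Among all annotated genes, which adds non-coding RNAs and pseudogenes, 6 had one, beside 59.0%. The 3 summits that lay inside a mesoderm gene were at Mesp1, Kdr and Tal1.

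The promoters that carried a peak are shown first, because they show which letters lay under a peak. RefSeq gives a promoter window, 250 bases before to 50 after a start site, for 9 of the 10 genes, and Mixl1 is not among them. A V5-KLF5 peak overlapped the window at 4 of these 9 genes, T, Kdr, Tal1 and Isl1, beside 47.1% of 17492 protein-coding genes with a window. The sequences run 5′ to 3′ along the gene in build GRCm38.p6, and capitals mark CCNCNCCC on either strand, the letters of the C-rich motif that KLF factors are known to read. Twist1, whose promoter has no peak, is given for comparison. Of the windows of mesoderm genes without a peak it held the most matches, 5, whereas those of Mesp1 and Msgn1 held 0.
T, chr17:8434173-8434472, plus strand: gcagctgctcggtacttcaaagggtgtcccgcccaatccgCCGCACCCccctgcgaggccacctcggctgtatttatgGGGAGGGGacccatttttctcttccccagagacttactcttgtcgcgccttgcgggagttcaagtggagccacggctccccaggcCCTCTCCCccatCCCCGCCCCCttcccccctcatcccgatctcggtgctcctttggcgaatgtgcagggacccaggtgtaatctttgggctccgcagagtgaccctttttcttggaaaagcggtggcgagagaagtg
Kdr, chr5:75978406-75978705, minus strand: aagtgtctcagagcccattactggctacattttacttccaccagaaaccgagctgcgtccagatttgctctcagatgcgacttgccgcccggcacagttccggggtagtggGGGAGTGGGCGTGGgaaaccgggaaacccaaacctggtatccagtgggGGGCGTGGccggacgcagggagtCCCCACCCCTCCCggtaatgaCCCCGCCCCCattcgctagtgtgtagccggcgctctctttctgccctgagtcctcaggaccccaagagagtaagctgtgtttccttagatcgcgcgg
Tal1, chr4:115056176-115056475, plus strand: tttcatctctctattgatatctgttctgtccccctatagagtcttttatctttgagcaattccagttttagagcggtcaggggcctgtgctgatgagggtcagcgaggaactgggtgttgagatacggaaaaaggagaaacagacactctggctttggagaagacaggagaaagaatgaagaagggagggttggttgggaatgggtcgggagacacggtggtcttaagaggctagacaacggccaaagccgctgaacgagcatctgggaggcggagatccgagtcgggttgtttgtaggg
Isl1, chr13:116309639-116309938, minus strand: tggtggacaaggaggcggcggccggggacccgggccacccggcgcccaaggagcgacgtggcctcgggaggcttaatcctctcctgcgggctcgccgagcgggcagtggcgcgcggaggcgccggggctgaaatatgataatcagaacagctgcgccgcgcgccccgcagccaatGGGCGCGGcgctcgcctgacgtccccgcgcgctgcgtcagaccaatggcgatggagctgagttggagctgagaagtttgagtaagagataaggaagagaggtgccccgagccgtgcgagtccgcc
Twist1, chr12:33957421-33957720, plus strand: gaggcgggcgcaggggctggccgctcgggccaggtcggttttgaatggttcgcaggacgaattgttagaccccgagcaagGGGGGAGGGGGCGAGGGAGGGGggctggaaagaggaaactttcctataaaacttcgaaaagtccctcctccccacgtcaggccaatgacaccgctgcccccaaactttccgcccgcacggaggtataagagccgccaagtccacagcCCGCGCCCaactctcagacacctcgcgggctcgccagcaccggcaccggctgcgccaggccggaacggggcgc

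The 4 peaks covered these promoters to different extents. The Kdr peak covered all 300 bases and all 7 motif matches, a number of matches reached by 4.30% of protein-coding promoter windows. The T peak covered the first 60 bases, with 1 of the 5 matches, at position -210 from the start site. The Isl1 peak covered the first 52 bases, and the only match, at position -75, lay outside it. The Tal1 peak covered the last 94 bases of a window without a match. The Twist1 window held 5 matches and no peak.

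Across the table, motif letters and base composition moved together with the presence of a peak. CCNCNCCC was found in 77.7% of protein-coding promoter windows that overlapped a V5-KLF5 peak and in 39.7% of those that did not, against 56.6% of all protein-coding windows. Median GC content was 63.0% in windows with a peak and 50.0% in those without, and a GC-rich motif is more frequent in GC-rich sequence. The part of base composition in that difference was not tested. The narrower letters CCCCNCCC, every match of which is also a match of CCNCNCCC, were in 57.3% of windows with a peak and 25.0% of those without, and CACCC, which can overlap both, was in 67.0% and 53.5%. Of the 10 windows of mesoderm genes (Tal1 has 2), 7 held CCNCNCCC. Mesp1, Msgn1 and the first Tal1 window had none. Such matches are letters in a window, and no binding site was located.

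**Figure D2:**
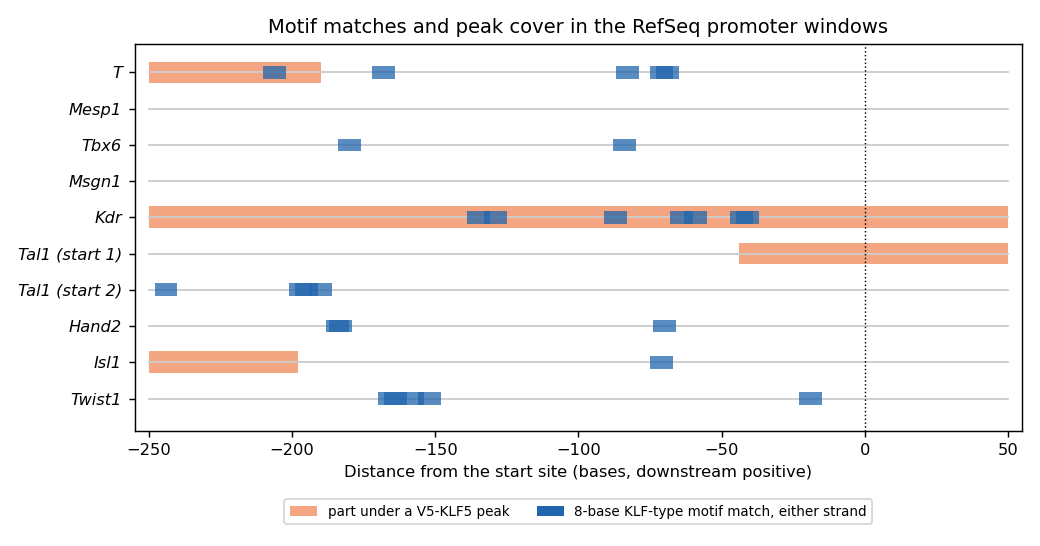
Matches of the 8-base KLF-type motif on either strand (blue) and the part of each 300-base RefSeq promoter window under a V5-KLF5 peak (orange), by distance from the start site. Tal1 has 2 start sites in the table. The Kdr window is covered along its whole length and holds 7 matches, whereas Twist1 holds 5 and Hand2 holds 3 with no peak over either.

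T, Mixl1 and Mesp1 act in the primitive streak and the mesoderm that leaves it. T encodes Brachyury, the T-box factor of the streak, nascent mesoderm and notochord. It lies on chromosome 17 at 8434423 to 8442496 and had 4 peaks, all at low pileup. In order along the gene, the first (8429597 to 8429879) had a pileup of 22 and a fold enrichment of 4.76 (3.06 to 7.10), with its summit 4736 bp upstream of the start site. The next pair lay at the promoter. The peak at 8433565 to 8433858, summit 729 bp upstream, had a pileup of 16 and a fold enrichment of 4.15, and the peak at 8433975 to 8434232, summit 311 bp upstream, had a pileup of 17 and 4.39. The last (8455687 to 8455957), 13298 bp beyond the far end of the gene, had a pileup of 18 and 3.78. The intervals of all 4 overlap, and no ranking among them was tested. The predicted coding gene LOC115486424 (8432660 to 8434528) spans the T start site. Both promoter summits lie inside it, and the summit farther upstream is nearer to its end, at 2973 bp.

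Mesp1 encodes a bHLH factor of nascent and cardiac mesoderm. It lies on chromosome 7 at 79792241 to 79793590 and had 2 peaks. The stronger, at 79789481 to 79790016, had a pileup of 32 and a fold enrichment of 6.83 (4.74 to 9.55). Its summit was 2525 bp beyond the 3′ end of Mesp1 and 459 bp from the pseudogene Gm44705. The weaker lay inside the short gene at 79792668 to 79793024, 682 bp downstream of the start site, with a pileup of 19 and 3.70 (2.30 to 5.67). Their intervals overlap. Mesp2, the adjacent bHLH gene of somite formation, shared 1 of these peaks by the 20 kb rule, and its strongest peak, with 6.52, was nearer to Anpep.

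Mixl1 encodes a homeobox factor of the streak. It lies on chromosome 1 at 180693043 to 180697034 and was the only one of the 10 without a peak. The nearest peak began 28687 bp beyond the gene, at 180725721 to 180726697, with a pileup of 57 and a fold enrichment of 14.2. That summit stood 78 bp from an end of Acbd3. Among called peaks on the genome-wide background, the lowest pileup was 11, a fold enrichment of 2.93. Binding below about that height in the Mixl1 window would not have been detectable in this list.

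Tbx6 and Msgn1 act in presomitic mesoderm. Tbx6 encodes a T-box factor that turns bipotent progenitors towards paraxial mesoderm. It lies on chromosome 7 at 126781483 to 126785548 in a gene-dense stretch and had 8 peaks, the most of the 10 genes. None lay inside it, and the closest peak edge was 4538 bp away. The strongest, at 126791891 to 126792793, had a pileup of 31 and a fold enrichment of 7.62 (5.25 to 10.7), and its summit was 76 bp from an end of Ppp4c, a phosphatase subunit gene. A pair of peaks with 6.28 and 6.33 and a weaker one with 3.29 lay inside Aldoa, which encodes a glycolytic aldolase. On the other side, a peak with 4.78 lay 219 bp from an end of Ypel3, peaks with 4.70 and 3.21 had Gdpd3 as the nearest gene, and a peak with 3.90 lay 70 bp from an end of Mapk3, which encodes the kinase ERK1. Every one of the 8 summits was thus nearer to an end of another gene than to Tbx6.

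Msgn1, the bHLH factor gene of presomitic mesoderm, lies on chromosome 12 at 11208382 to 11208948 and had 3 peaks, the closest 9300 bp from it. The peak at 11222576 to 11222916 had a pileup of 24 and a fold enrichment of 6.10 (4.00 to 8.96), with its summit 13739 bp upstream. The peak at 11226072 to 11226493 had a pileup of 22 and 5.61, and its summit, 17361 bp upstream, was nearer to Gen1, at 12619 bp. The peak at 11198439 to 11199082, downstream, had a pileup of 20 and 5.12 and lay inside the lncRNA 9530020I12Rik. The 3 intervals overlap.

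Kdr and Tal1 belong to the progenitors of blood and endothelium, and both had their single peak at a start site. Kdr encodes the VEGF receptor FLK1, a surface marker of lateral mesoderm. It is the longest of the 10 genes (chromosome 5, 75932827 to 75979072, 46246 bp). In its 86.2 kb window it had 1 peak, at 75978268 to 75978820, with a pileup of 20 and a fold enrichment of 3.75 (2.36 to 5.69). The summit was 72 bp upstream of the start site of the promoter window. It was also 545 bp inside the gene, because the annotated gene extends farther upstream than that start site. The predicted lncRNA Gm32727, which overlaps Kdr, spans the summit as well. The input background there was 4.60, above the genome-wide 3.10. The interval of this peak overlaps those of the strongest peaks of T, Mesp1, Tbx6, Msgn1, Tal1, Isl1 and Twist1. Overlap alone does not decide whether such values differ, and no ranking was tested.

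Tal1 encodes a bHLH factor required for blood formation. It lies on chromosome 4 at 115056426 to 115071755, and its peak (115056382 to 115057296) was the longest of the 22, at 915 bp. It had a pileup of 30 and a fold enrichment of 4.87 (3.34 to 6.88) over a raised input background of 5.37. The summit was 675 bp downstream of the first start site and before the second. The promoter windows at the 2 start sites differ, with 0 matches of CCNCNCCC in the first and 4 in the second, and only the first was overlapped by the peak.

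Hand2 and Isl1 act in the heart and the limb. Hand2 encodes a bHLH factor of the ventricles and the limb bud. It lies on chromosome 8 at 57320983 to 57324517 and had 1 peak, at 57304864 to 57305377, which was the strongest of the 22. It had a pileup of 46 and a fold enrichment of 11.5 (8.46 to 15.2), which 9.10% of all V5-KLF5 peaks reached. Its interval lay above the fold enrichments of the other 21 peaks, the highest of which was 7.62, though not above all of their intervals. The summit was 15843 bp upstream of the Hand2 start site and 879 bp inside an end of Hand2os1, the lncRNA gene that runs through the upstream region of Hand2 (57304261 to 57320859). No coding gene end was nearer than that of Hand2. The Hand2 promoter itself, with 3 motif matches, had no peak.

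Isl1, the LIM-homeobox gene of the second heart field, lies on chromosome 13 at 116298270 to 116309688 with no other protein-coding gene in its window. Its peak, at 116309887 to 116310279, had a pileup of 16 and a fold enrichment of 4.15 (2.48 to 6.58), with the summit 380 bp upstream of the start site. Its window had 69.0% GC, the highest of the 10 windows. Twist1, a bHLH gene of head mesenchyme and of epithelial-mesenchymal transition, lies on chromosome 12 at 33957671 to 33959831. Its peak, at 33967904 to 33968570, had a pileup of 14, a fold enrichment of 3.66 (2.11 to 5.98) and a summit 8207 bp beyond the 3′ end.

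**Figure D3:**
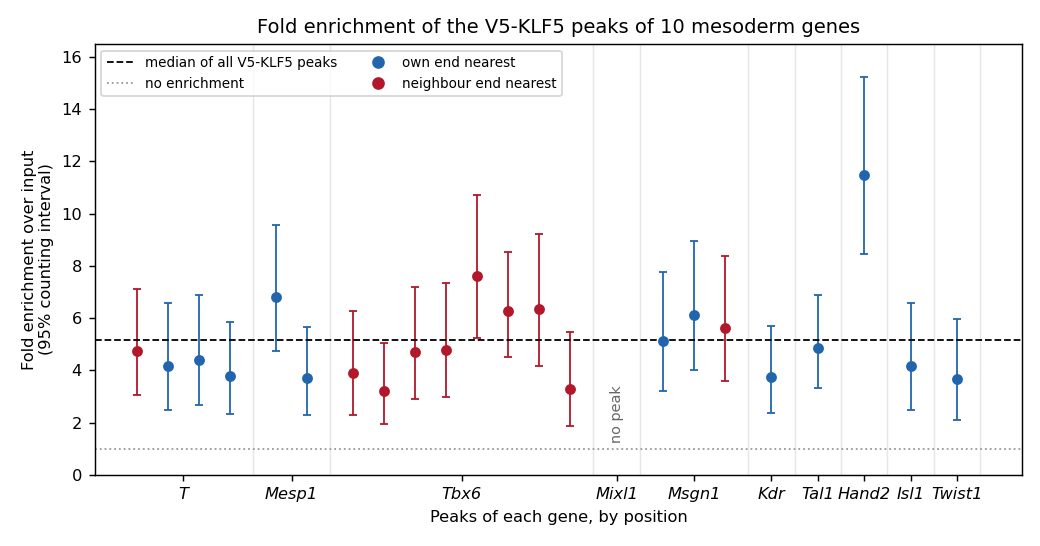
Fold enrichment over input (y axis) of each of the 22 V5-KLF5 peaks, by gene and position. Bars are 95% Poisson intervals of the pileup and cover counting error only, and the dashed line is the median of all peaks at 5.18. Of the 22 intervals, 19 span the dashed line. Those of the Hand2 peak and of the strongest Tbx6 peak lie above it, and that of the weakest Tbx6 peak lies below.

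At the promoters, the 4 peaks of mesoderm genes had fold enrichments below the median of promoter peaks. The peaks over the windows of T, Kdr, Tal1 and Isl1 had fold enrichments of 4.39, 3.75, 4.87 and 4.15. The median of the strongest promoter peak over 8241 protein-coding genes was 6.29, with quartiles of 4.64 and 8.90. The intervals at T (2.66 to 6.89), Tal1 (3.34 to 6.88) and Isl1 (2.48 to 6.58) held that median, and that of Kdr (2.36 to 5.69) lay below it. Within 1 kb of a start site Mesp1 joined these 4 genes, which made 5 of 9 genes, beside 52.7% of protein-coding genes.

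The number of peaks differed with the number of genes around, with a median of 1, 2 and 4 peaks per gene in the 3 classes that follow. Kdr, Hand2, Msgn1, Twist1 and Isl1 have no other protein-coding gene in the 20 kb window, and all 5 had a peak, beside 54.8% of 5379 such genes. Mixl1, Tal1, Mesp1 and T have 1 or 2 others, and 3 of the 4 had a peak, beside 77.7% of 11879. Tbx6 has 3 or more, as do 4629 genes, of which 90.9% had a peak. The median strongest fold enrichment of these classes of genes with a peak was 7.36, 8.17 and 9.66, each above the median of the mesoderm regulators.

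The 20 kb limit decided which peaks were seen. The last peaks inside it began 17124 bp from Msgn1 (fold enrichment 5.61) and 15606 bp from Hand2 (11.5). The first outside were 21339 bp from Tbx6 (4.64, nearest to Mapk3), 22188 bp from Tal1 (8.54, 250 bp from an end of Pdzk1ip1) and 23440 bp from Tbx6 (3.92, nearest to Tlcd3b). The pair of peaks just beyond the limit at Tal1 had fold enrichments of 8.54 and 8.05, against 4.87 at its start. Within 10 kb, 8 of the 10 genes had a peak, beside 70.6% of protein-coding genes, and Hand2 was then without one. Within 50 kb all 10 had a peak, beside 81.1%. Where the summit itself had to lie within 20 kb, 9 genes had a peak, beside 74.7%.

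The count of genes with a peak also depended on the threshold. At a −log10 q of at least 5, 8 of the 10 kept a peak, beside 72.2% of all protein-coding genes, and at 10, 5 did, beside 61.3%, the others being T, Kdr, Isl1, Twist1 and Mixl1. At a fold enrichment of at least 5 the count was 4, namely Mesp1, Tbx6, Msgn1 and Hand2, beside 63.9%.

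Other genes of mesoderm formation differed widely by role. A wider list of 45 genes had a peak at 44, with Bmp2 as the exception, beside 74.8% of all protein-coding genes. Of the 45, 19 had a strongest peak with a fold enrichment of at least 10, beside 28.2%. The median strongest peak of the wider list was 8.96, against 4.87 for the 10 regulators and 8.45 for all protein-coding genes with a peak. The lists also differed in the number of peaks. The median per gene was 5 for the wider list, 1 for the 10 regulators and 2 over all protein-coding genes. Among the 12 genes of streak formation and its signals, all had a peak, 10 reached 10 and the median was 13.2. Evx1, a homeobox gene of the posterior streak, had 36.4 at a summit inside the gene. Fgf8, which encodes the growth factor that drives cells out of the streak, had 29.7, and Nodal, the ligand that induces the streak, had 29.5. Tdgf1, the Nodal co-receptor gene, had 22.6 and Wnt3a, the ligand gene of the tail bud, had 21.2. Snai1, a repressor gene of epithelial-mesenchymal transition, had 13.2, as did the organiser gene Gsc. Eomes, a T-box gene of streak and trophoblast, had 11.6, and Bmp4 and the Nodal effector gene Foxh1 had 10.3 each, the peak of Foxh1 being nearer to Kifc2. Several of these genes, Nodal and Tdgf1 among them, are also active in ES cells. Expression was not measured here, and its relation to the peaks was not tested. T, downstream of the streak signals in the embryo, had no peak above 4.76 within 20 kb, and a peak with 9.27 lay 47431 bp from it.

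The other roles had fewer genes that reached 10 than the streak list. Among all protein-coding genes, 28.2% reached 10. Of 11 paraxial mesoderm and somite genes, 5 reached 10 and the median was 8.90. These were the transcription factor gene Meox1 at 15.2, the Notch pathway genes Lfng and Dll1 at 15.1 each, the clock gene Hes7 at 13.7, whose peak was nearer to Aloxe3, and Tcf15, a bHLH gene of the somites, at 12.2. Of 11 genes of blood and endothelium, 4 reached 10 with a median of 9.03, namely Lyl1, a close relative of Tal1, at 12.5, the cadherin gene Cdh5 at 11.5, the transcription factor gene Runx1 at 10.7 and Pecam1 at 10.3. Of 11 heart and lateral plate genes, 10 had a peak and none reached 10. Their median was 5.84 and the highest was Tbx20 at 9.05. Hand1, the paralog of Hand2, had 5.61.

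Lists of other lineages gave the scale, beside 74.8% of all protein-coding genes with a peak and 28.2% with one of at least 10. All 10 naive pluripotency genes had a peak, 9 reached a fold enrichment of 10 and the median strongest peak was 17.96, led by Esrrb at 28.5. All 10 neural genes had a peak with a median of 7.93, led by Pax7 at 18.8, and 3 reached 10. All 10 primitive endoderm genes had a peak with a median of 6.08, and 2 reached 10. Gata4 and Pdgfra of this list are also in the heart and lateral plate list. The mesoderm regulators had 1 of 10 at that height and a median of 4.87. The median number of peaks per gene was 7 for the naive pluripotency list and 3.5 for each of the neural and primitive endoderm lists. For the mesoderm regulators it was 1. The strongest peaks of the 9 genes ran from 3.66 to 11.5, with Hand2 alone at the top. The next highest, at Tbx6, was 7.62, below the neural median and above the primitive endoderm median. Within 50 kb the median of the mesoderm regulators was 7.22, and those of the other lists were not computed there. Genes within 1 library are not replicates and the lists were chosen with results known, so these differences carry no test.

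**Figure D4:**
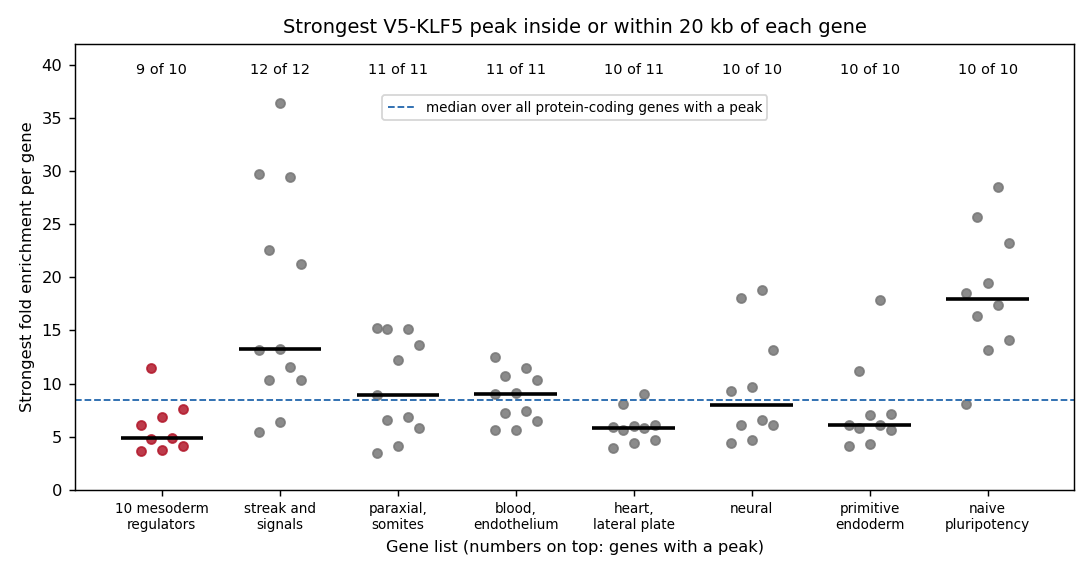
Strongest V5-KLF5 fold enrichment inside or within 20 kb of each gene (points), by gene list, with each list's median as a black bar and the median over all protein-coding genes with a peak, 8.45, as a dashed line. Numbers on top give the genes with a peak. The 10 mesoderm regulators (red) have a median of 4.87, and the naive pluripotency genes one of 17.96.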

How the data were processed

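Peak lists were used for 3 immunoprecipitates. Per the file headers, the authors called peaks with MACS2 2.1.0.20140616 on single libraries, each with the matching input as background, with 51 bp tags extended to 250 bp, 1 tag kept per position and a q-value cutoff of 0.05. The submitters' processing notes name mm10 and Bowtie 0.12.8. How reads with several map positions were handled is not stated in the sources at hand. After duplicate removal the V5-KLF5 library had 23.2 M (mega) tags, the IgG library 24.5 M, the untagged V5 library 21.8 M, the V5-KLF5 input 30.2 M and the untagged input 22.1 M. The deposited pileup is a signal, the deposited fold enrichment a ratio, and the deposited significance is −log10 of p-values and q-values.

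Input background was recovered from pileup and fold enrichment. A Poisson test with it gave the deposited −log10 p within 1% at 22 of 22 peaks. Genes and promoters came from RefSeq tables of GRCm38.p6, where all symbols matched. These tables hold no exons, introns or untranslated regions. Coordinates are 1-based. Named were all 10 genes, neighbours nearest to a summit, wider-list genes with a fold enrichment of at least 10, and the leading gene of each lineage list, of which 1 is not reported here. Genes named beside these (Lhx1 and Wnt3 below, and Hand1, Mesp2, Tbx20 and Bmp2) were chosen after their values were seen. The genes, lists and rules were chosen with earlier results of these data known. With 1 library per group no test was made. Window, nearest-gene and motif steps were tested on simulated data. Python 3.11.15, pandas 2.3.3 and scipy 1.17.1 were used.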

Additional observations from a re-analysis of the deposited data

How the results depend on the processing

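The count of 9 genes with a peak was close to that under a 10 kb window (8), a 50 kb window (10), summits in place of intervals (9) and a −log10 q of at least 5 (8). It moved to 5 at a −log10 q of at least 10, where T, Kdr, Isl1 and Twist1 lost their peaks, to 4 with peaks of at least 5-fold and to 1, Hand2, at 10-fold. The count of 22 peaks moved to 12 within 10 kb, 34 within 50 kb, 7 at a −log10 q of at least 10, 8 at a 5-fold minimum and 1 at 10-fold. Within 10 kb Hand2 lost its peak. The median strongest fold enrichment of 4.87 was 4.81 within 10 kb, 7.22 within 50 kb and 4.63 over peaks nearest to or inside the gene, where Tbx6 had none. With peaks of 10-fold or more, the wider mesoderm list moved to 19 genes, the neural list to 3 and the primitive endoderm list to 2. The share of all protein-coding genes there was 28.2%. For the lineage lists these settings were chosen after the data were seen. Each stricter threshold removes peaks by construction. The pileups of 13 to 46 behind single peaks limit how finely they can be ranked. No paired analysis was possible because each group has 1 library.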

Other observations

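Within the wider list, Lhx1, an organiser homeobox gene, and Wnt3, the ligand gene that starts the streak, were the streak genes without a strong peak. Their strongest peaks had fold enrichments of 5.39, at a summit nearer to Aatf, and 6.34, inside Wnt3. Both values are close to those of the 10 regulators.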
